A study of Mus musculus with 6 samples.

Results

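Chaperone genes were examined in CD45+CD11b+ cells sorted from the mouse pancreas. The members were all protein-coding genes whose symbols mark them as heat shock proteins, DNAJ proteins, numbered CCT chaperonin subunits or BAG proteins 1 to 6, which gave 86 of the 21700 protein-coding genes in the count table. Of these, 79 were among the 14429 genes with enough counts to be tested. The other 7 (Hspb2, Hspb3, Hspb7, Dnajb3, Dnajb8, Dnajc5b and Dnajc5g) held at most 1 count in any library. By the compartment their proteins are known to work in, 52 members were placed in the cytosol and nucleus, 14 in the endoplasmic reticulum (ER), 10 in mitochondria and 10 elsewhere.

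The control group (PBS-1 to PBS-3) received an intraperitoneal injection of phosphate-buffered saline. The treated group (WGP-1 to WGP-3) received 1 mg of whole β-glucan particles, hollow yeast cell walls rich in (1,3) β-glucan that phagocytes take up. All mice were wild-type C57BL/6 of 6 to 8 weeks, both sexes were used in the study, and the pancreas was taken 7 days after a single injection, cut up, digested with collagenase and sorted. CD45 marks leukocytes and CD11b marks myeloid cells, so each library is a mixture of macrophages, monocytes, neutrophils and other gated cells. In such bulk samples, fewer cells of a type that holds a transcript and less of that transcript per cell cannot be told apart.

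Chaperones bind unfolded or newly made proteins and keep them from aggregating. In the cytosol, HSP70 works in cycles with DNAJ proteins, which bring it clients and start ATP hydrolysis, with exchange factors such as BAG and HSP110 proteins, which reset it, and with HSP90, which finishes the folding of kinases and receptors. The CCT chaperonin folds actin and tubulin inside a closed ring. The HSP70, HSP90 and HSP110 families pair constitutive genes with genes induced by heat shock factor 1. This factor binds repeats of GAA and TTC (heat shock elements) in promoters when unfolded protein builds up. The ER and the mitochondria have their own sets, induced by the unfolded protein responses of these organelles. Tissue digestion is itself a stress to which leukocytes can respond within minutes by transcribing early genes and heat shock genes.

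To show the elements the inducible genes are known for, promoter sequences of RefSeq (build GRCm38.p6, 250 bases before to 50 bases after a transcript start) were searched on both strands. A promoter was available for 70 of the 86 members. Capitals mark matches. In the first 4 sequences below these are pairs of GAA and TTC units, in either order, with 2 bases between them. The strict form of the element, 3 such alternating units in a row, includes overlapping pairs, and Hsph1 and Hspd1 hold it. Hspa1a and Hspa1b, the stress-inducible HSP70 genes, are shown together because they lie next to each other on chromosome 17 and carry nearly the same promoter, with 296 of 300 positions identical. All sequences are written 5′ to 3′ on the strand of the gene.

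Hspa1a (chr17:34972107-34972406, minus strand): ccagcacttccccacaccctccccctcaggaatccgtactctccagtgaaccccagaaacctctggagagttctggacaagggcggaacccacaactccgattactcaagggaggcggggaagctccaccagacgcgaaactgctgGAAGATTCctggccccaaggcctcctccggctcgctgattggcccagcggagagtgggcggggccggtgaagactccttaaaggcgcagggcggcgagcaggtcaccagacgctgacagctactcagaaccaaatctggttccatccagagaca

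Hspa1b (chr17:34959189-34959488, minus strand): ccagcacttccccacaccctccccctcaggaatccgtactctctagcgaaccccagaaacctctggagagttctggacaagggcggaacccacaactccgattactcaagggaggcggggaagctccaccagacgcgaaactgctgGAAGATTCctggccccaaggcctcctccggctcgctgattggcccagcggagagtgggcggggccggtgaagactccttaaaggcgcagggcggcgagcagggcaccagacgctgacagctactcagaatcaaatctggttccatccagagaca

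Hsph1 (chr5:149636266-149636565, minus strand): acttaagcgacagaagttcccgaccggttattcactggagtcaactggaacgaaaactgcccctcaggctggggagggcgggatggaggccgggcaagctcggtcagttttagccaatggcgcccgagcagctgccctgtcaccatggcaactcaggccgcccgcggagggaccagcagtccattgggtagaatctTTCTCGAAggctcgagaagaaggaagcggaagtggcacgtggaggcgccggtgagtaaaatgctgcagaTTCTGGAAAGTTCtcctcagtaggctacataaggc

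Hspd1 (chr1:55087883-55088182, minus strand, the inner of 2 listed starts): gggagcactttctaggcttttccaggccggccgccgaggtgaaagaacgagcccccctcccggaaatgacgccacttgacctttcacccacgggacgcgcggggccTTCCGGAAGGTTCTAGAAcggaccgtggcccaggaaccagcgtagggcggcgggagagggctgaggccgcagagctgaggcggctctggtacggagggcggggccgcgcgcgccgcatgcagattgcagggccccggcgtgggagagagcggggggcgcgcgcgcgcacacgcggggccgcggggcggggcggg

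Hspd1 and Hspe1, the mitochondrial HSP60 and its lid HSP10, are transcribed in opposite directions from 1 region. The Hspe1 window overlaps the one shown and holds the same element read from the other strand. The ER genes Hspa5 (BiP) and Hsp90b1 (GRP94) are shown with the ER stress element in capitals, here CCAAT, 9 bases and CCACG.

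Hspa5 (chr2:34771840-34772139, plus strand): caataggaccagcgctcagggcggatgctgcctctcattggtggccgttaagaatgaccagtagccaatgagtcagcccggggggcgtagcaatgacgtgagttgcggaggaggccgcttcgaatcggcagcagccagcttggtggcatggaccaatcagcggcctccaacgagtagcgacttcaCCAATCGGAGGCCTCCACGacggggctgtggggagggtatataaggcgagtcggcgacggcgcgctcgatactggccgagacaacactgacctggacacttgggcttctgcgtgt

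Hsp90b1 (chr10:86705395-86705694, minus strand): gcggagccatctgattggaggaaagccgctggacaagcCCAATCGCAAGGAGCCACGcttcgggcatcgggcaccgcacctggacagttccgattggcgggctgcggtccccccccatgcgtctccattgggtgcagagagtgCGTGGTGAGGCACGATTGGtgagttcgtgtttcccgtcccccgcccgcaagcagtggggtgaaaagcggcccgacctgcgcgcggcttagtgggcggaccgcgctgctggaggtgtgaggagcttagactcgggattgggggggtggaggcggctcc

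Over all 27025 genes with a promoter in the table, 0.662% held the strict 3-unit element and 17% held at least 1 pair of units. Of the 70 members with a promoter, 4 (5.71%) held the strict element (Dnajb6, Hspd1, Hspe1 and Hsph1) and 20 (28.6%) held a pair. The ER stress element was found in 0.137% of all genes and in 3 members, which were Dnajc3, Hsp90b1 and Hspa5. A match describes these letters only and says nothing of which factor was bound in these cells.

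Chaperone transcripts made up a smaller share of the RNA after WGP. Members summed to 20210.3, 20013.3 and 14857 CPM (the standard per-library rescaling of read counts to a common total, after TMM correction for library composition) in the PBS libraries, and to 9597, 10822 and 8055 in the WGP libraries. The highest WGP library thus lay below the lowest PBS library. The means were 18360.1 ± 3036 and 9491 ± 1386 CPM (SD, n = 3 each). In the raw counts, members took 1.91% ± 0.365 of a PBS library and 0.915% ± 0.125 of a WGP library. Hspa1a and Hspa1b alone accounted for 58.4% of the difference between these means, and without them the other 84 members fell from a mean of 12452 to 8760.4 CPM, again without overlap between the groups.

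Most members did not pass the test, and nearly all that did were lower after WGP. In edgeR's quasi-likelihood test across all 14429 genes, 12 of the 79 tested members were lower in WGP with a p-value, adjusted by Benjamini-Hochberg, at or under 0.05, against 6.81% of all genes. Only 1 member, Dnajc5, was higher, against 7.54% of all genes. With a 2-fold change also required, 10 members were lower, against 4.96% of all genes, and 0 were higher, against 4.53%. Before adjustment, 16 members were lower and 4 higher at a p under 0.05, and the tests of DESeq2 and limma-voom found the same 13 members and added Hspb1. All 3 WGP libraries lay below all 3 PBS libraries for 21 members, against 16.1% of all genes, and above them for 6, against 16% of all genes. The median log2 fold change was -0.13 over the 79 members and -0.05 over all genes tested. It was -0.10 over the 63 members with a mean of at least 5 CPM and 0.01 over the 9818 genes at that level.

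**Figure D1:**
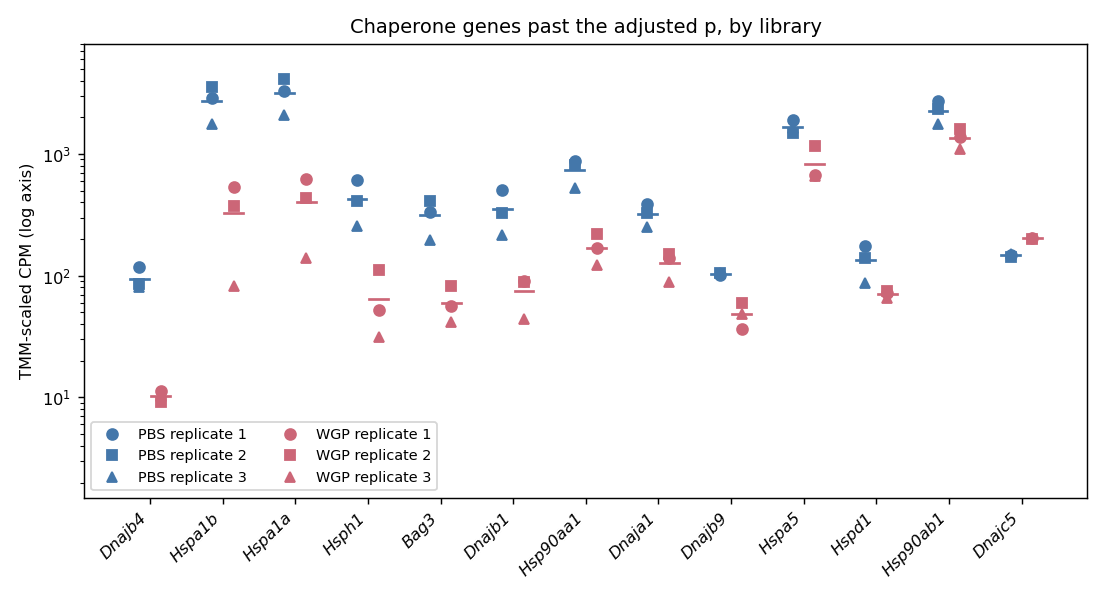
TMM-scaled CPM on a log axis of the 13 members past the adjusted p, in each PBS (blue) and WGP (red) library; horizontal lines are group means and marker shapes are replicate numbers. For each gene the groups do not overlap, with 12 lower in WGP and Dnajc5 higher.

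The inducible HSP70 genes were among the most abundant transcripts of the control cells and fell about 8-fold. Hspa1a stood at 3290.5, 4104 and 2105 CPM in PBS-1 to PBS-3 and at 625, 438 and 139 CPM in WGP-1 to WGP-3. Hspa1b stood at 2889.6, 3566 and 1770.4 CPM in the PBS libraries and at 532, 376 and 81.7 CPM in the WGP libraries. The PBS libraries were all above the WGP libraries for both genes, with PBS-3 the lowest of its group and WGP-3 the lowest of all. The log2 fold changes of WGP over PBS were -2.98 ± 0.47 (SE, adjusted p = 0.00192) and -3.06 ± 0.56 (adjusted p = 0.00443). Ranked by CPM per kilobase of exon over all protein-coding genes of the table, Hspa1a took place 20 in PBS and 307 in WGP, and Hspa1b places 27 and 363.

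The split of reads between these 2 genes is uncertain. Of the 75-base windows of their transcripts, as long as the reads, 61.7% in Hspa1a and 55.8% in Hspa1b also occur in another gene, mostly in each other, and Hspa1a shares 564 exon bases with Gm20481. With both counted as 1 gene, an alternative chosen after seeing the data, the log2 fold change was -3.02 (adjusted p = 0.00289).

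The constitutive HSP70 gene did not pass the test. Hspa8, which encodes HSC70, stood at 1781, 1851 and 1639 CPM in the PBS libraries and at 1547, 1936 and 1349 CPM in the WGP libraries. The groups overlapped, and the log2 fold change was -0.13 (95% interval -0.50 to 0.25, adjusted p = 0.699). Within a library, the summed level of Hspa1a and Hspa1b per kilobase was 5.17, 6.17 and 3.52 times that of Hspa8 in PBS and 1.11, 0.626 and 0.243 times in WGP. By this measure the inducible genes exceeded the constitutive one in each PBS library, and in WGP they did so in WGP-1 only. The measure divides by the full exon length. Larger shares of Hspa1a and Hspa1b windows than of Hspa8 windows occur in other genes, so the order within WGP libraries is uncertain. Of the Hspa8 windows 33.0% occur in other genes, mostly a processed pseudogene.

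HSP110 proteins, which exchange the nucleotide of HSP70 and help it take aggregates apart, include 1 gene that fell and 2, Hspa4 and Hspa4l, that did not pass. Hsph1, the inducible member, stood at 614, 411 and 256 CPM in PBS and at 52, 110.3 and 31.1 CPM in WGP. Its log2 fold change was -2.73 ± 0.45 (adjusted p = 0.00246), with the PBS libraries above the WGP libraries throughout. Without WGP-2, the highest WGP library, it was -3.36. Hspa4 stood at 188, 167 and 159 CPM in PBS and at 172, 188 and 179 CPM in WGP, with groups that overlapped. Its log2 fold change was 0.07 (95% interval -0.23 to 0.38, adjusted p = 0.804), and the sign turned with the scaling by library totals alone. Hspa4l had a log2 fold change of 0.21 (adjusted p = 0.592).

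HSP90 matures kinases and steroid receptors as a dimer. Its inducible gene Hsp90aa1 stood at 871, 813 and 527 CPM in PBS and at 168, 219.5 and 123 CPM in WGP (log2 fold change -2.11 ± 0.25, adjusted p = 3.39e-04). Its constitutive gene Hsp90ab1 stood at 2709.9, 2329.5 and 1774 CPM in PBS and at 1371, 1608 and 1104 CPM in WGP (log2 fold change -0.74 ± 0.20, adjusted p = 0.0343). Neither gene's groups overlapped. The ratio of Hsp90aa1 to Hsp90ab1 per kilobase was 0.245, 0.266 and 0.227 in PBS and 0.0935, 0.104 and 0.0850 in WGP, so the inducible gene was the lower of the pair in all 6 libraries. Hsp90ab1 missed the threshold without PBS-1, PBS-2, WGP-1 or WGP-3 (adjusted p 0.0524 to 0.139). For Hsp90aa1, 42.8% of windows occur in another gene, mostly a pseudogene.

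**Figure D2:**
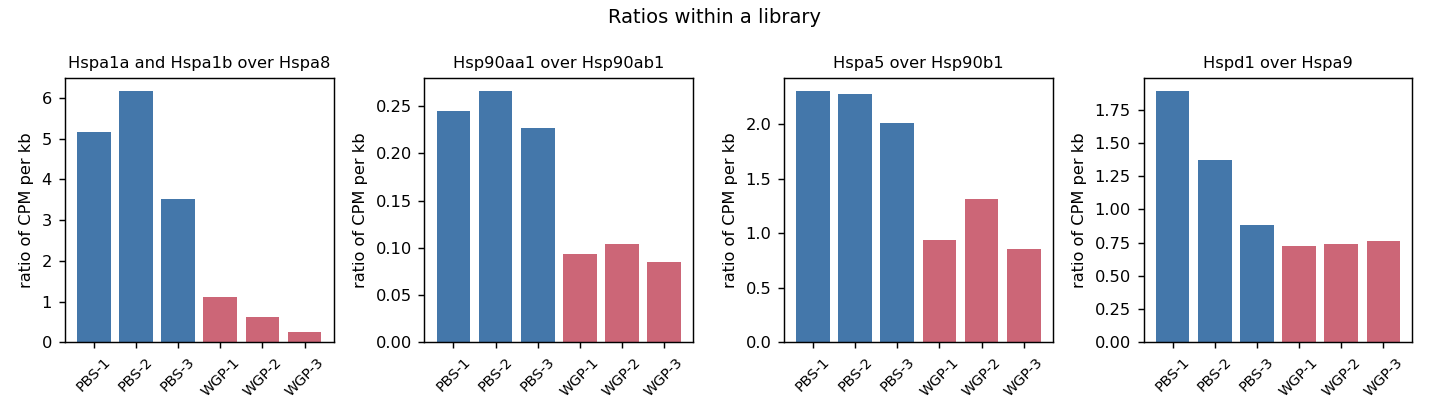
Ratio of CPM per kilobase of exon between chaperone genes of the same compartment, in each PBS (blue) and WGP (red) library, on axes that start at 0. All 3 PBS libraries lie above all 3 WGP libraries in each of the 4 ratios, for example 3.52 to 6.17 against 0.243 to 1.11 for Hspa1a and Hspa1b over Hspa8; the pairs were chosen after the values were seen.

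Among the J-domain partners of HSP70, 1 of 4 tested DNAJA genes and 3 of 11 tested DNAJB genes fell, with the ER gene Dnajb9 among the latter, against 6.81% of all genes. With 4 DNAJA genes, 1 is not far from that share. Dnajb4, a cytosolic partner, stood at 117, 84.9 and 81.2 CPM in PBS and at 11.3, 9.21 and 10.2 CPM in WGP. It had the smallest p of the members, and on the log2 scale the change was -3.21 ± 0.21 (adjusted p = 1.33e-05), or 9.24-fold lower. Dnajb1, which encodes HSP40 and also restrains heat shock factor 1, stood at 508, 325 and 217 CPM in PBS and at 90.9, 88.7 and 44.5 CPM in WGP (log2 fold change -2.23 ± 0.34, adjusted p = 0.00156).

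Dnaja1, a farnesylated partner, stood at 388, 329.9 and 250.1 CPM in PBS and at 140.2, 151 and 88.5 CPM in WGP (log2 fold change -1.35 ± 0.23, adjusted p = 0.00302). It shares 608 exon bases with Smu1. Dnaja2, the DNAJA gene with the highest level per kilobase, ranged from 115 to 133 CPM in PBS and from 113 to 151 CPM in WGP (log2 fold change 0.07, adjusted p = 0.846). The groups overlapped for Dnaja2 and not for Dnaja1.

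The DNAJC genes are the most varied class. Of the 26 tested, none fell past the adjusted p in the quasi-likelihood test, DESeq2 or limma-voom, and at an unadjusted p under 0.05 the count was 1 lower and 3 higher. With 6.81% of all genes lower, few of 26 would be at that share, so the count of 0 is not read as a result about the class. Together they summed to between 1159 and 1291 CPM in PBS and between 1259.8 and 1361 CPM in WGP. Dnajc8, a nuclear protein that had the highest level per kilobase of the class, stood at 102, 99.3 and 98.0 CPM in PBS and at 98.9, 75.7 and 98.7 CPM in WGP (adjusted p = 0.655). Dnajc5 was the 1 gene that rose. It encodes the cysteine string protein of secretory vesicles, and stood at 146.5, 143 and 150.3 CPM in PBS and at 203, 198 and 205 CPM in WGP (log2 fold change 0.46 ± 0.13, adjusted p = 0.0357). This call missed the threshold in 8 of 14 alternatives, with adjusted p up to 0.137.

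BAG proteins release the nucleotide of HSP70, and BAG3 routes clients to autophagy. Bag3 stood at 335, 408 and 197 CPM in PBS and at 55.8, 82.4 and 41.3 CPM in WGP, with no overlap (log2 fold change -2.39 ± 0.31, adjusted p = 5.49e-04). None of the other 5 BAG genes passed, and the 4 of them with a mean of at least 5 CPM had log2 fold changes from -0.67 (Bag5) to 0.22 (Bag4). Hspb1, the small heat shock protein HSP27 or HSP25, stood at 25.0, 31.1 and 16.0 CPM in PBS and at 0.271, 9.55 and 0.489 CPM in WGP. Its groups did not overlap, yet the 3 WGP libraries differed widely, and its log2 fold change of -2.80 ± 1.05 had an adjusted p of 0.116. Without WGP-2 it was -5.96 (adjusted p = 8.95e-05), a value that rests on 10 reads in WGP-1 and 20 in WGP-3. The most frequent low counts of these libraries were 19 and 28 reads, so both values may stand for few molecules. WGP-2 was also the library in which 6 fibroblast markers summed to 1817 CPM, against 33.7 to 175 CPM in the others, and the part of these markers in the value was not tested. Of the Hspb1 windows 46.4% also occur in a pseudogene.

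The CCT chaperonin had 8 tested genes. Of these, Cct6b had 34 reads in WGP-2 only and Cct8l1 had 17 reads in WGP-1 only. Cct6a was not among the members, and Tcp1, the first subunit, was counted with the partners, so the 8 are not the full ring. None passed the adjusted p in the quasi-likelihood test, DESeq2 or limma-voom, and none had an unadjusted p under 0.05. With 6.81% of all genes lower and 7.54% higher, a count of 0 of 8 is near these shares, and the levels say more. The 6 subunit genes above 5 CPM summed to 1054, 818 and 814 CPM in PBS and to 927, 949 and 900.1 CPM in WGP. The WGP libraries lay inside the range of the PBS libraries. Log2 fold changes ran from -0.19 for Cct3 through -0.16 for Cct2, 0.07 for Cct5, 0.13 for Cct8 and 0.17 for Cct7 to 0.27 for Cct4. The 95% intervals of the outermost genes were -0.59 to 0.20 for Cct3 and -0.06 to 0.60 for Cct4, so a 2-fold change lay outside both. Cct2 had the highest level per kilobase, 88.4 in PBS and 79.4 in WGP. PBS-1 was the highest PBS library for all 6, and against PBS-1 alone Cct5, Cct7 and Cct8 turned sign. Cct5 also did with the scaling by library totals alone.

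**Figure D3:**
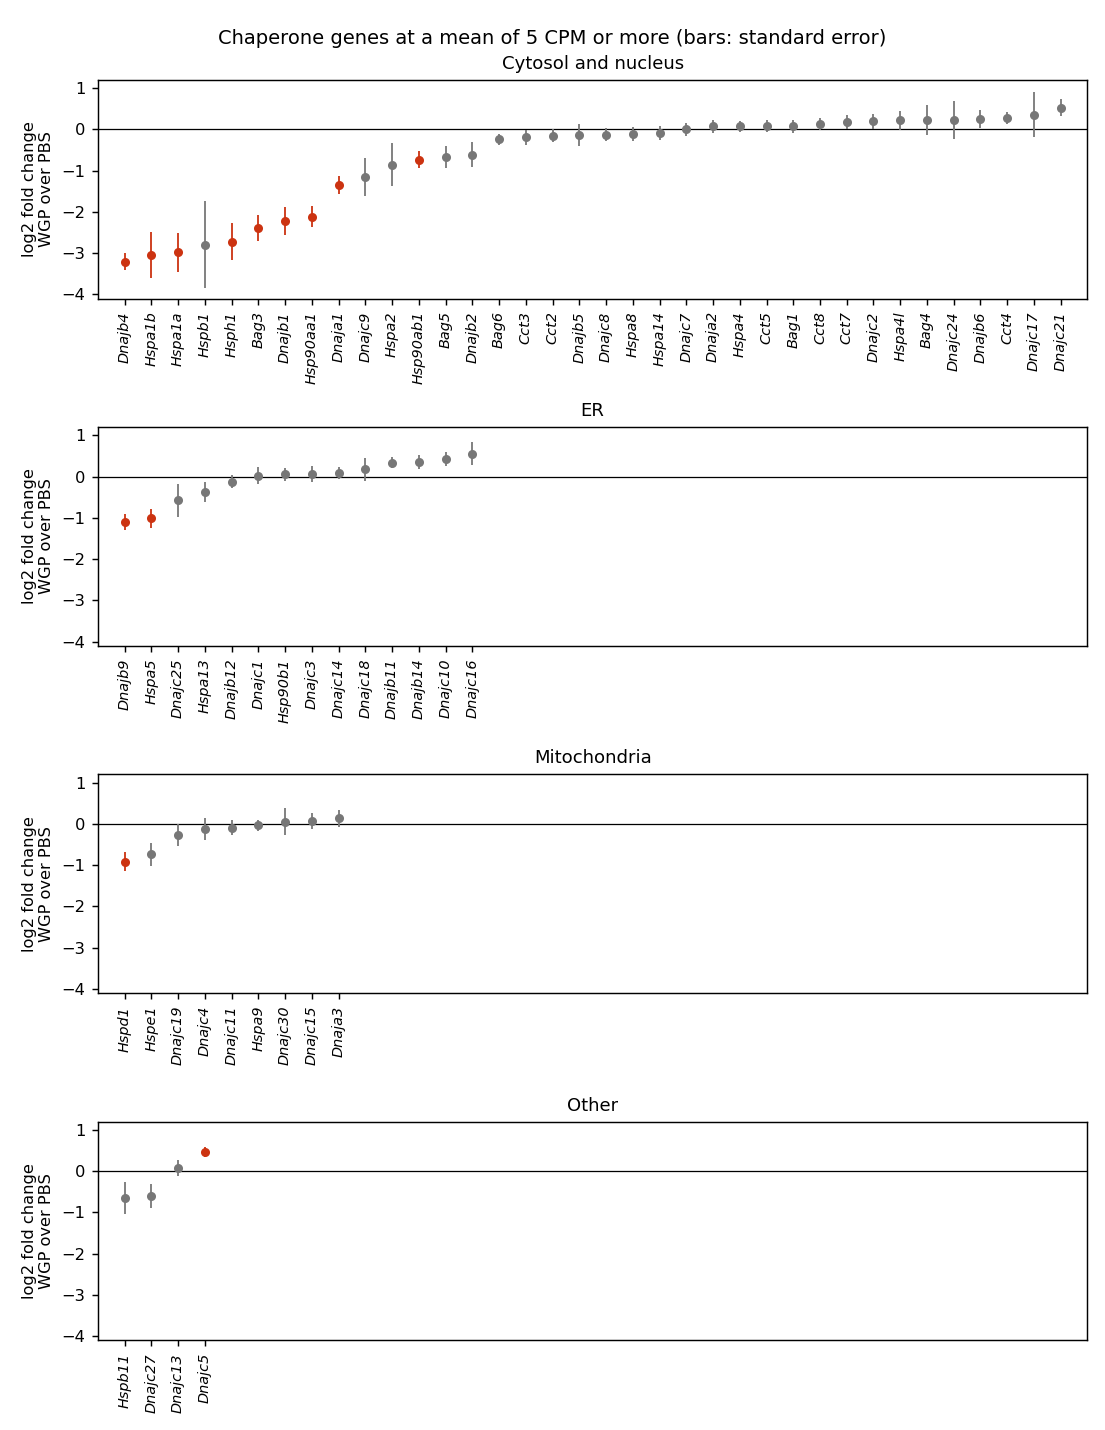
Log2 fold change of WGP over PBS with its standard error for the 63 tested members with a mean of at least 5 CPM, in 4 panels by compartment and ordered by value; red marks an adjusted p of at most 0.05. The cytosol and nucleus panel reaches from -3.21 for Dnajb4 to 0.53, and the ER panel holds Dnajb9 and Hspa5 apart from 12 genes between -0.58 and 0.55.

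Members were also counted by compartment, against the 6.81% of all genes that were lower and the 7.54% that were higher past the adjusted p. In the cytosol and nucleus 9 of 47 tested members fell past the adjusted p, 8 of them by more than 2-fold. In the ER 2 of 14 fell, in mitochondria 1 of 10, and of the 8 tested members elsewhere none fell and Dnajc5 rose. The summed level of the cytosolic and nuclear members was 2.28 times as high in PBS as in WGP, against 1.34 times for the ER and 1.23 times for mitochondria. These ratios rest in part on single genes: 1.51 without Hspa1a and Hspa1b in the first, 0.97 without Hspa5 in the ER and 1.11 without Hspd1 in mitochondria, so the ER sum was not higher in PBS apart from Hspa5. Median log2 fold changes were -0.16, 0.06 and -0.11. The counts for the ER and mitochondria rest on few genes, and the difference between compartments was not tested.

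In the ER, BiP and its partner Dnajb9 fell, and the 12 other members did not pass the test. Hspa5 (BiP), the HSP70 of the ER lumen, stood at 1889, 1494 and 1645 CPM in PBS and at 672, 1159 and 665 CPM in WGP, with WGP-2 the closest to the PBS group. The log2 fold change was -1.01 ± 0.23 (adjusted p = 0.0135), and it missed the threshold without WGP-1 (adjusted p = 0.0640) or WGP-3 (adjusted p = 0.0652). Dnajb9, which encodes the BiP partner ERdj4, stood at 100.5, 105 and 106 CPM in PBS and at 36.8, 59.6 and 48.3 CPM in WGP (log2 fold change -1.11 ± 0.19, adjusted p = 0.00305). The PBS libraries lay close together and above the WGP libraries for Dnajb9.

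Hsp90b1 (GRP94), which holds 2 matches to the ER stress element in the promoter shown above, stood at 782, 627 and 779 CPM in PBS and at 683, 839 and 743 CPM in WGP. Its groups overlapped (log2 fold change 0.05, 95% interval -0.30 to 0.40, adjusted p = 0.892), and the sign turned with the scaling by library totals alone. The ratio of Hspa5 to Hsp90b1 per kilobase was 2.30, 2.27 and 2.01 in PBS and 0.937, 1.32 and 0.853 in WGP. BiP was thus more than double GRP94 in each PBS library and near it in the WGP libraries. Dnajc3 (P58IPK), which also holds the element, had a log2 fold change of 0.06 (adjusted p = 0.896) that turned with the same scaling. Dnajb11 (ERdj3), another BiP partner, ranged from 88.1 to 98.5 CPM in PBS and from 109.8 to 125 CPM in WGP (log2 fold change 0.33, adjusted p = 0.154).

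In mitochondria, HSP60 was lower after WGP. Hspd1 stood at 176, 139.8 and 87.4 CPM in PBS and at 71.9, 74.9 and 66.0 CPM in WGP, so that the PBS libraries were spread while the WGP libraries were close to each other. The log2 fold change was -0.92 ± 0.23 (adjusted p = 0.0220), and it missed the threshold without PBS-2, WGP-1 or WGP-3 (adjusted p 0.0735 to 0.0891). Hspe1, its lid, stood at 106.9, 61.9 and 46.1 CPM in PBS and at 42.0, 47.5 and 38.8 CPM in WGP (log2 fold change -0.74 ± 0.28, adjusted p = 0.113), with WGP-2 above PBS-3. The ratio of Hspd1 to Hspe1 per kilobase stayed between 0.880 and 1.26 in the 6 libraries. The genes overlap by 112 exon bases on opposite strands, and 31.0% of Hspd1 windows and 14.6% of Hspe1 windows occur in other genes, mostly processed copies.

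The mitochondrial HSP70 did not change detectably. Hspa9 (mortalin) stood at 152, 167 and 161 CPM in PBS and at 161, 166 and 141 CPM in WGP (log2 fold change -0.04, 95% interval -0.34 to 0.27, adjusted p = 0.909). Its partner Dnaja3 had a log2 fold change of 0.13 (adjusted p = 0.756). The signs of both turned when PBS-1 was the only control. The ratio of Hspd1 to Hspa9 per kilobase was 1.89, 1.37 and 0.883 in PBS and 0.727, 0.737 and 0.764 in WGP.

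**Figure D4:**
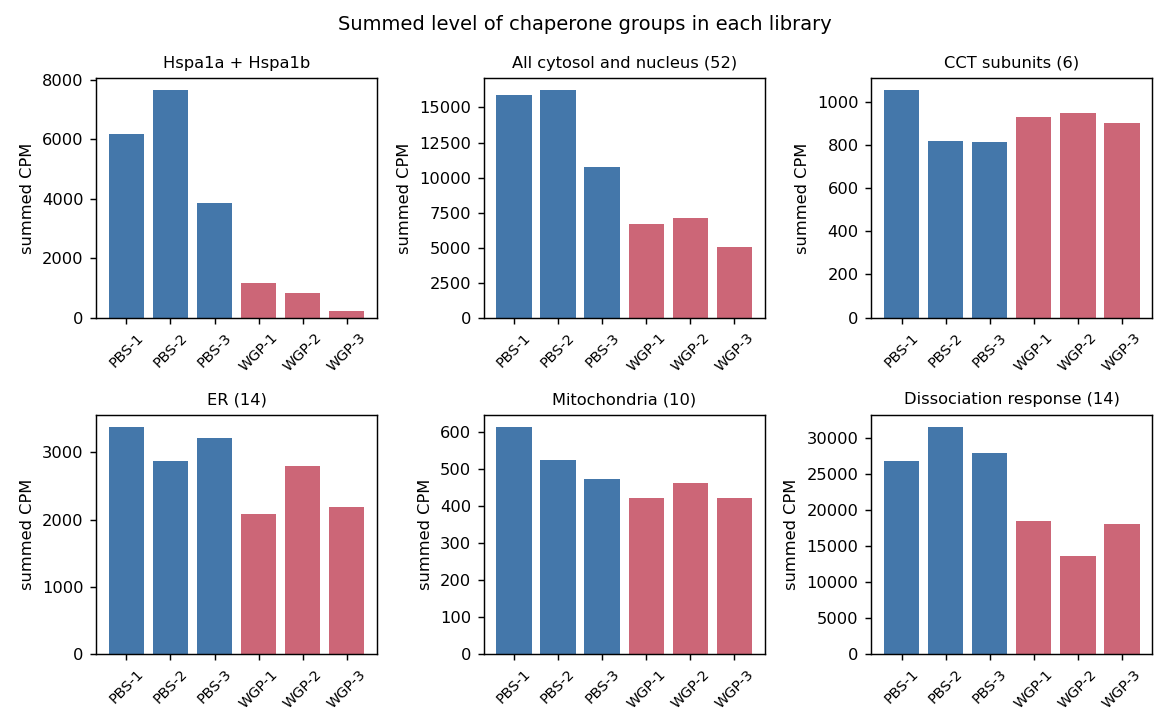
Summed TMM-scaled CPM per library for groups of chaperone genes and for the 14 early response genes, with PBS in blue and WGP in red on axes that start at 0; each panel has its own scale. Hspa1a with Hspa1b and the cytosol and nucleus panel separate the groups, the 6 CCT subunit genes do not, and the early response genes sum to 26841 to 31628 CPM in PBS and 13659.8 to 18578 CPM in WGP.

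The libraries of a group were also ordered over the 12 genes that fell. PBS-3 was the lowest PBS library for 10 of them, and PBS-1 was the highest for 8, PBS-2 for 3 and PBS-3 for 1. WGP-3 was the lowest WGP library for 10, and WGP-2 was the highest for 8 and WGP-1 for 4. Over all 983 genes lower past the adjusted p, PBS-3 was the lowest PBS library for 31.8%, PBS-1 the highest for 31.6%, WGP-3 the lowest WGP library for 32.9% and WGP-2 the highest for 37.5%. Of the 12, 10 had a RefSeq promoter in the table, and 7 of these (70%) held at least 1 GAA and TTC pair. These were Bag3, Dnaja1, Dnajb4, Hspa1a, Hspa1b, Hspd1 and Hsph1. Among the other 60 members with a promoter 13 (21.7%) held a pair, and over all genes 17% did. Hspa1a and Hspa1b carry nearly the same promoter with the same pair, so they are not separate cases. A gene with several windows was counted if any of them held a pair. The difference between these shares was not tested. No pair lay in the windows of Dnajb1, Dnajb9 and Hspa5.

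Levels of other cells and of early response genes moved with the groups, and their part in the values above was not tested. All 10 markers of the sort, among them Ptprc (CD45) and Itgam (CD11b), were detected, and 6 of the 10 rose in WGP. A list of 14 early genes known to respond to tissue dissociation, with no heat shock gene in it, summed to between 26841 and 31628 CPM in PBS and between 13659.8 and 18578 CPM in WGP, with 5 genes lower and 1 higher past the adjusted p and none at 0. In this list Fosb, Egr1, Jun, Atf3 and Ier2 fell and Btg2 rose, while Fos had a log2 fold change of -0.23 (adjusted p = 0.484). PBS-2 was the highest PBS library for 10 of the 14, PBS-3 the lowest for 6, and WGP-3 the lowest WGP library for 2. Among the 12 chaperones that fell these counts were 3, 10 and 10. The 12 were selected for their fall and the 14 were not, so the sets are unlike, and the difference was not tested.

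Markers of resident macrophages fell in 9 of 10 (summed 9098 to 18674 CPM in PBS, 3165 to 5066 CPM in WGP), those of acinar cells in 14 of 14 (1838 to 6698 and 467 to 765 CPM) and those of B cells in 6 of 6 (378 to 2499 and 89.1 to 177 CPM). No marker of these lists was at 0 in all libraries. Of 8 markers of Ly6C-high monocytes 5 rose and 1 fell. PBS-1 had the most B cell and neutrophil markers. It was also the PBS library without Y-linked counts, which the WGP libraries lacked as well (at most 0.0244 CPM, against 230.3 and 246 CPM in PBS-2 and PBS-3). A covariate for the presence of these counts leaves PBS-1 as the only control set against the 3 WGP libraries, with the spread taken from the other libraries, so it does not separate sex from treatment. In that fit Dnajc5 missed the threshold and the other 12 members kept it. The libraries held between 35334645 and 43341834 counts. Their most frequent low count was 19 to 41 reads (0.516 to 1.07 CPM), so values near 1 CPM may stand for few molecules.

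Regulators and partners outside the families were counted by list. The shares over all genes, 6.81% lower and 7.54% higher past the adjusted p, leave room for few genes in lists this short, so counts near them are not read as results about a list. Of 5 tested heat shock factors and their modulators, none passed the adjusted p in the quasi-likelihood test, DESeq2 or limma-voom, and none had an unadjusted p under 0.05. Hsf1, the main factor of the heat shock response, stood at 49.9, 65.0 and 52.1 CPM in PBS and at 44.7, 40.8 and 49.8 CPM in WGP (log2 fold change -0.30, adjusted p = 0.335). Hsf5 had counts in PBS-2 only. Of the cochaperones of HSP70 and HSP90, 1 gene was left out, and no count is given for this list. The phosphatase gene Ppp5c missed the threshold and stood at 80.4, 85.5 and 102 CPM in PBS and at 65.2, 58.5 and 64.0 CPM in WGP (log2 fold change -0.51, adjusted p = 0.0529). Stip1, which encodes the HOP protein that joins HSP70 and HSP90, had a log2 fold change of -0.01 (adjusted p = 0.986).

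Of 10 chaperonin and prefoldin partners, Txndc9, a regulator of CCT, rose (log2 fold change 0.71, adjusted p = 0.0155). Pfdn2 had a log2 fold change of -0.69 (adjusted p = 0.0639), and Tcp1, the first CCT subunit, had -0.10 (adjusted p = 0.725). Of 20 mitochondrial folding and import genes none passed in the quasi-likelihood test or limma-voom, 1 was higher in DESeq2, and 2 were higher at an unadjusted p under 0.05. The smallest p values belonged to Iscu (log2 fold change 0.73, adjusted p = 0.0560) and Hspbap1 (1.03, adjusted p = 0.0812). The place of Hspbap1 on this list is doubtful, as its protein is named for binding the small heat shock protein HSPB1. Trap1, the mitochondrial HSP90, had a log2 fold change of -0.16 (adjusted p = 0.629).

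Of 35 tested genes of ER folding and the unfolded protein response, 2 rose and 3 fell, which is near the shares over all genes. Ppp1r15a (GADD34), which reverses the block of translation that ER and other stresses set, stood at 1478, 1551 and 937 CPM in PBS and at 317, 196 and 299 CPM in WGP (log2 fold change -2.29 ± 0.25). Ero1l, the ER oxidase, stood at 29.5, 25.7 and 15.1 CPM in PBS and at 74.3, 102.5 and 65.7 CPM in WGP (log2 fold change 1.79 ± 0.27). Named after their values were seen, Atf4 (-1.06) and Herpud1 (-0.78) also fell and Edem1 (0.76) rose. Hyou1, the HSP110 of the ER, was not past the threshold (log2 fold change 0.41, adjusted p = 0.147).

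**Figure D5:**
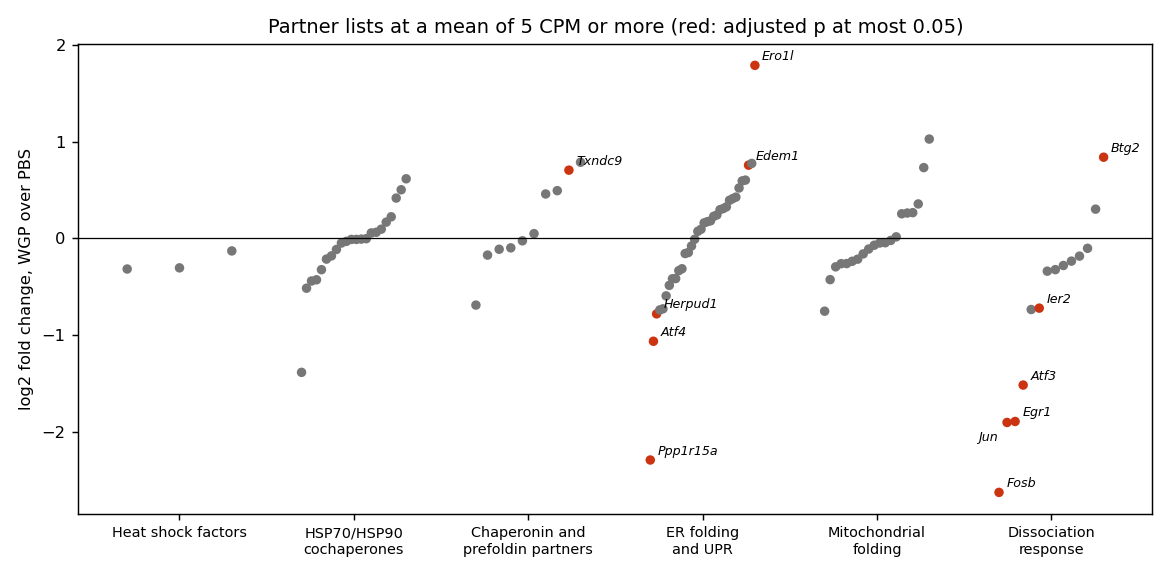
Log2 fold change of WGP over PBS for genes outside the chaperone families with a mean of at least 5 CPM, by list; each point is a gene and red points, which carry their symbols, have an adjusted p of at most 0.05; 1 cochaperone gene is not drawn. The lists of heat shock factors and mitochondrial genes hold no red point, and those of the ER and of the early response hold red points on both sides of 0.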

How the data were processed

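RNA of CD45+CD11b+ cells was sequenced as 3 PBS and 3 WGP libraries (polyA selected, single 75-base reads). The authors aligned the reads to mm10 (GRCm38.p6) with STAR 2.6 and deposited raw counts per Ensembl gene from HTSeq 0.10.0. The annotation release, strand setting and handling of duplicates are not given in the sources used here. Symbols, biotypes and exon lengths came from GENCODE vM21. A figure legend of the study describes its samples as separate animals, the labels do not, and p-values measure the spread between these samples.

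From the deposited counts, TMM-scaled CPM and edgeR 4.0.16 quasi-likelihood tests (R 4.3.3) were computed for 14429 protein-coding genes, those whose RLE-normalized counts summed to at least 10. P-values were adjusted over all of them by Benjamini-Hochberg. A change was called at an adjusted p of at most 0.05 and 2-fold. SE is the log2 fold change over the square root of F. Named genes were the members past the adjusted p, the member of each family with the highest CPM per kilobase, a fixed set of canonical chaperones, and the 2 smallest p values of each partner list with 5 fixed partners. Other genes were named after their values were seen, and members and lists were chosen with earlier results of these data known. Alternatives were RLE factors, library totals, DESeq2 1.42.0, voom of limma 3.58.1, 2 filters, a replicate block, a covariate for Y-linked counts and each library left out. Results for 1 cochaperone gene were left out. The script was tested on simulated data.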

Additional observations from a re-analysis of the deposited data

How the results depend on the processing

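Of the 12 members lower in WGP, 9 passed the adjusted p in all 14 alternatives (Bag3, Dnaja1, Dnajb1, Dnajb4, Dnajb9, Hsp90aa1, Hspa1a, Hspa1b and Hsph1). The count of members higher in WGP, 1 (Dnajc5), became 0 with library totals only and with the replicate block (adjusted p = 0.0755), and was 0 to 1 with a library left out. Replicate numbers did not pair the libraries (correlations of deviations 0.0755, -0.0487 and 0.0899 over 9818 genes). The block lost Dnajc5, added Hspb1 (log2 fold change -4.36, adjusted p = 0.0136) and changed no other member's call. Only PBS-2 and PBS-3 carry Y-linked counts, so the covariate for them compares PBS-1 alone with WGP, the lone library being assumed to vary like the others. Against PBS-1 alone Hspe1 (log2 fold change -1.32), Dnajb14 and Dnajc9 passed. Hspe1 also passed without PBS-3 (-0.98).

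Library totals alone moved the median of all genes from -0.05 to -0.16, and turned Hspa4 to -0.0361, Hsp90b1 to -0.0560, Dnajc3 to -0.0381 and Cct5 to -0.0374. The Y-linked covariate, with PBS-1 as the only control, turned Hspa4 to -0.0642, Hsp90b1 to -0.0505, Hspa9 to 0.0366, Dnaja3 to -0.0168, Cct5 to -0.122, Cct7 to -0.155 and Cct8 to -0.0539. With a library left out, values ran for Hsp90b1 from -0.0476 to 0.1182, Dnajc3 from -0.0904 to 0.2342, Hspa9 from -0.0829 to 0.0313 and Dnaja3 from -0.0311 to 0.2629. None of these values passed the threshold, and the cause of the turns was not tested. Without WGP-2 the log2 fold change of Hsph1 went from -2.73 to -3.36. With 3 libraries a group, the 95% interval printed with a gene is the limit of what its value can show.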
